A study of Mus musculus with 95 samples.

Results

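Expression of 10 genes of the trophoblast lineage, and the Polycomb proteins and histone marks at their starts, was followed in mouse embryonic stem cells that lack different PCGF proteins. The genes, picked by name from a table of 23377 genes, were Cdx2, Elf5, Tfap2a, Tfap2c, Gata2, Gata3, Hand1, Krt7, Krt8 and Krt18. RNA-seq libraries of polyA RNA came in 2 replicates each from wild-type E14 cells and from Pcgf1-/-, Pcgf2/4-/-, Pcgf3/5-/-, Pcgf6-/-, Pcgf1/2/4-/- and Pcgf3/5/6-/- derivatives, 14 libraries in all. E14 is a mouse embryonic stem cell line, and all lines were kept on gelatin with serum, leukemia inhibitory factor and inhibitors of GSK3β and of MEK1/2, so that wild-type and knockout cells share this medium. The knockouts were made with Cas9 and guide RNAs, and double and triple lines by editing a knockout clone again. The count table's headers name 1 clone per knockout line, so a difference from wild-type is a difference of that clone, and replicates are not said to be separate clones or cultures. ChIP-seq was given as 80 lists of called peaks. RING1B, SUZ12 and H3K27me3 were called in the 7 lines, H3K4me3 and PCGF6 in wild-type, Pcgf1-/-, Pcgf2/4-/-, Pcgf3/5-/- and Pcgf6-/-. PCGF6 was also called with a control hairpin (labelled shCtr), after short hairpin knockdown of Mga or E2f6, and in samples labelled shMGAdHLH and shE2F6-MGAdHLH. It was called as well in a Ring1a-/- line with a conditional Ring1b allele before and after Ring1b loss (labelled Ring1a/b-/-).

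The trophoblast is the outer layer of the early embryo, the first lineage set apart from the cells that embryonic stem cells come from, and it builds the fetal part of the placenta. CDX2, ELF5, the AP-2 factors TFAP2A and TFAP2C and the GATA factors GATA2 and GATA3 are transcription factors that keep or start the trophoblast programme, HAND1 drives its differentiation into giant cells, and keratins 7, 8 and 18 form the filaments of its epithelium. Polycomb repressive complex 1 is built on RING1A or RING1B and 1 of 6 PCGF proteins, and places ubiquitin on histone H2A. Polycomb repressive complex 2, with SUZ12 as a subunit, places H3K27me3. H3K4me3 marks gene starts, and starts that carry it together with H3K27me3 are called bivalent. PCGF6 complexes also hold MGA and E2F6, which bind DNA.

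The 14 libraries held 2147968 to 7848161 counted reads, and 3 counts came to 0.328 to 1.60 CPM. CPM is the count scaled to the library total over tested genes times its TMM factor, which edgeR fits to make libraries comparable. Levels below are CPM. Embryonic stem cell genes were high in all libraries: Pou5f1 lay between 202 and 717 CPM, Nanog between 102 and 206, and Sox2 between 71.3 and 154. Pcgf6 had 0 counts in both Pcgf6-/- libraries. In the libraries labelled Pcgf3/5/6-/- it had 133 and 110 counts (42 and 37.2 CPM), while wild-type had 36.2 and 34.3 CPM, so its count does not check the label. Pcgf5 was at 16.4 and 13.5 CPM there, against 13 and 10.8 in wild-type and 5.48 and 4.6 in Pcgf3/5-/-. Pcgf3 was at 13.6 and 13.5 CPM there, 16.4 and 15.5 in wild-type and 11.4 and 12.8 in Pcgf3/5-/-. Pcgf2 likewise had 98 and 429 counts in Pcgf2/4-/-, and a count over a whole gene need not fall when an edit is small. Pcgf1, not named in the Pcgf3/5/6-/- label, was at 25.9 and 33.5 CPM in those libraries, against 66.1 and 61 in wild-type. The 2 wild-type libraries differed by less than sampling noise over 13931 genes (chi-square per degree of freedom 0.951). The wild-type pair may therefore be 1 sample. Calls are also given with its counts summed and counted as 1 sample, a setting chosen after seeing the data. The same value was 1.19 in Pcgf3/5/6-/-, 1.21 in Pcgf1/2/4-/-, 1.91 in Pcgf6-/-, 5.62 in Pcgf3/5-/-, 10.8 in Pcgf1-/- and 21.3 in Pcgf2/4-/-. Both triple knockout pairs were thus also near sampling noise, and whether they came from separate cultures was not tested. In bulk RNA, fewer cells that express a gene and less RNA of it per cell cannot be told apart.

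In wild-type cells the genes ran from well expressed to undetected. Per kilobase of annotated exon, Krt8 was highest at 53 and 57.3 CPM per kb in the 2 libraries, then Cdx2 at 31.4 and 34.4, Krt18 at 21.8 and 23.0 and Tfap2a at 12.6 and 13.5. Tfap2c followed at 5.20 and 4.63 CPM per kb, Gata3 at 3.19 and 3.47, and Gata2 at 2.17 and 1.47. Hand1 at 0.572 and 0.141 and Krt7 at 0.121 and 0.0798 rested on 10 counts each over both libraries, which gives them no order. Elf5 had 1 count. With 1 or 2 samples the order has no test.

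Most of these starts carried Polycomb peaks in wild-type cells. Of the 10 genes, 9 had a RING1B peak no more than 2.5 kb from an annotated start, against 15.7% of 21966 genes, and a SUZ12 peak at the same 9, against 17.0%. Elf5 was the gene without. H3K27me3 peaks were called at 8 (13.2% of genes), not at Tfap2a or Elf5, and H3K4me3 at 9 (68.5%), again not at Elf5. RING1B, SUZ12, H3K27me3 and H3K4me3 were all present at 8 of 10, against 10.4% of genes. H2AK119Ub1, the mark of Polycomb repressive complex 1, was called at Cdx2, Tfap2c, Gata2, Gata3 and Krt7 (5 of 10, 3.92% of genes). Wild-type PCGF6 peaks lay at Cdx2, Tfap2c and Gata3 (3 of 10, 5.88% of genes), without Gata3 when only the 5′-most start was used. The lists have 1 sample per antibody and line, apart from RING1B and H2AK119Ub1 in Pcgf1/2/4-/-, so these shares are descriptions without a test.

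Within the wild-type RING1B list, by the authors' fold enrichment of each peak, Cdx2, Gata3, Gata2, Tfap2c and Hand1 ranked above the keratins, and Tfap2a ranked among them. The Cdx2 peak (mm9 chr5:148115653-148119454) had a higher fold than 98.1% of the list, the strongest at Gata3 (chr2:9795863-9800344) than 96.3%, Gata2 (chr6:88142689-88151711, 9023 bp long) than 94.7% and Tfap2c (chr2:172371047-172377803) than 91.6%. Hand1 ranked above 88.6%. Krt18 ranked above 50.2%, Tfap2a above 37.3%, Krt8 above 36.3% and Krt7 above 12.5%, with a peak of 411 bp. In the SUZ12 list Cdx2 ranked above 99.6%. The wild-type PCGF6 peaks were of middle or low rank, above 44.6% of that list at Cdx2, 36.2% at Tfap2c and 17.8% at Gata3, with summits 210, 60 and 531 bp downstream of the nearest start.

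The 250 bases before the start differed between the genes in CpG pairs, the dinucleotide that Polycomb-bound starts are known to be rich in. Starts were those nearest the strongest wild-type H3K4me3 peak, or the 5′-most for Elf5, which has none. That start is internal at Gata2, Gata3, Hand1, Krt7, Tfap2a and Tfap2c, where the window lies within the gene. It runs over exons of other transcripts for all 250 bases at Gata3, 208 at Krt7 and 76 at Tfap2c, and these are not printed. At Gata2, Hand1 and Tfap2a it holds no annotated exon, but lies downstream of another annotated start. The Gata2 sequence below is thus inside the gene and not before its 5′-most start. Below are the gene with the fewest pairs and no Polycomb peak in wild-type (Elf5), the one with the most (Gata2), the highest RING1B rank (Cdx2) and a keratin that rose in 5 of 6 knockouts (Krt18). Capitals mark CG pairs, and sequence and annotation are NCBIM37 (mm9), read 5′ to 3′ on the gene's strand.
Cdx2, chr5:148118847-148119096, minus strand: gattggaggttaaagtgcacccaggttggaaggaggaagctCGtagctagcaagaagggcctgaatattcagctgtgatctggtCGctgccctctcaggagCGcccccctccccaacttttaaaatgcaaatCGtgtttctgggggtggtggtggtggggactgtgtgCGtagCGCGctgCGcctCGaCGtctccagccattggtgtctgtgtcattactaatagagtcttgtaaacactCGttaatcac
Elf5, chr2:103251595-103251844, plus strand: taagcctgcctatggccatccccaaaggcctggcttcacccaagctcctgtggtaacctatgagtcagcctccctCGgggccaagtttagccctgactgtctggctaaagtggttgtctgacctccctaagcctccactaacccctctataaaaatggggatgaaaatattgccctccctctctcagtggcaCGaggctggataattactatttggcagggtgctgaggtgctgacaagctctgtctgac
Gata2, chr6:88148408-88148657, plus strand: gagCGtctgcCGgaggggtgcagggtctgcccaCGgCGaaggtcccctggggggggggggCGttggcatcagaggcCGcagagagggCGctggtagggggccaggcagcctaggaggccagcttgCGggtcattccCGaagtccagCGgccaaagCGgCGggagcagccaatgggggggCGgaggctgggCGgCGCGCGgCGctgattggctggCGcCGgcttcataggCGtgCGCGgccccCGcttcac
Krt18, chr15:101858397-101858646, plus strand: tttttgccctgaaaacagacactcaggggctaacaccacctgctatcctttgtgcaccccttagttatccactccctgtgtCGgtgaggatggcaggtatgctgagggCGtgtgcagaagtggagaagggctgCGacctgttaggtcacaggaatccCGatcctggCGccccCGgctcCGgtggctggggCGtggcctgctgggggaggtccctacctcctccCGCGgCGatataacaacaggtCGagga

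Elf5 had 2 CG pairs in this window, Cdx2 11, Krt18 12 and Gata2 24, against a median of 12 over 21961 genes. Of the others, Krt8 had 3, Hand1 4, Tfap2c 9, Tfap2a 13, Gata3 19 and Krt7 20. The share of genes with fewer pairs was 14.8% for Elf5, 21.4% for Krt8, 27% for Hand1 and 79.5% for Gata2. The 9 genes with RING1B were thus not all CpG-rich in this window. The E-box CACGTG, searched on both strands, was in the window of Tfap2c alone among the 10 (6.66% of windows of all genes). GGCGGGA, an E2F-type motif, was in those of Gata2, Gata3 and Tfap2c (13.8%). Neither motif was within the 201 bases centred on the wild-type PCGF6 summits at Cdx2, Tfap2c and Gata3, where 20.9% and 10.9% of 1863 such windows held them.

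**Figure D1:**
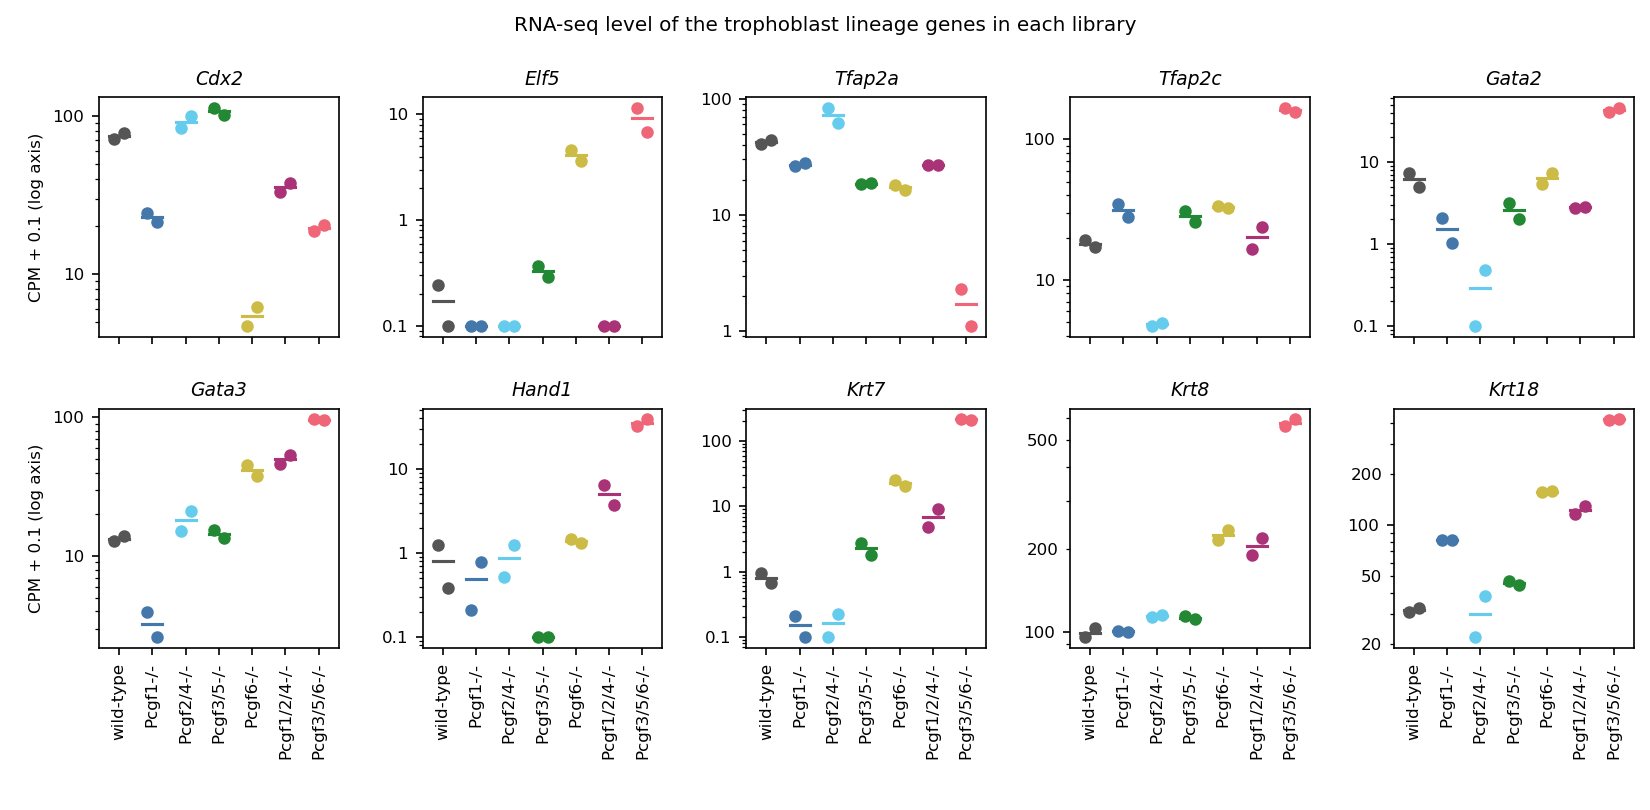
RNA-seq level of each gene in each library, as CPM plus 0.1 on a log axis that differs between panels, with 2 points and their mean (line) per genotype. Keratins, Gata3, Tfap2c, Gata2, Hand1 and Elf5 are highest in the libraries labelled Pcgf3/5/6-/-, while Cdx2 is lowest in Pcgf6-/- and Tfap2a lowest in Pcgf3/5/6-/-.

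Cdx2, the homeobox factor that sets trophectoderm apart, was expressed in wild-type cells and fell when PCGF6 or PCGF1 was missing. Its level was 71.1 and 77.8 CPM in wild-type, 4.61 and 6.13 in Pcgf6-/-, 18.6 and 20.3 in the libraries labelled Pcgf3/5/6-/-, 24.2 and 21.3 in Pcgf1-/- and 33.1 and 37.5 in Pcgf1/2/4-/-. It was 83.4 and 99.7 in Pcgf2/4-/- and 112 and 102 in Pcgf3/5-/-. The first 4 of these knockouts lay below wild-type with no overlap, the last 2 above it. The fall in Pcgf6-/- was 14-fold (log2 fold change -3.80 ± 0.16, SE; adjusted p = 4.52e-10, edgeR quasi-likelihood test). In Pcgf3/5/6-/- it was -1.94 ± 0.15 (adjusted p = 1.42e-07), in Pcgf1-/- -1.70 ± 0.13 (7.01e-07) and in Pcgf1/2/4-/- -1.07 ± 0.14 (8.66e-05). The rise in Pcgf3/5-/- was 0.53 ± 0.11 (adjusted p = 0.00489), and the value in Pcgf2/4-/-, 0.32, did not pass (adjusted p = 0.0694).

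Elf5, an ETS factor that holds trophoblast stem cells in their state, was close to undetected except in the 2 genotypes without Pcgf6 by label. It had 36 and 23 counts in Pcgf6-/- (4.48 and 3.52 CPM) and 36 and 20 in Pcgf3/5/6-/- (11.4 and 6.76 CPM). Wild-type had 1 and 0 counts, Pcgf3/5-/- 2 and 1, and Pcgf1-/-, Pcgf2/4-/- and Pcgf1/2/4-/- 0 in each library. Against the 1 wild-type count, the ratio was 57.2-fold in Pcgf6-/- (exact 95% interval 9.88 to 2300, counting error only) and 129-fold in Pcgf3/5/6-/- (22.2 to 5190). Both passed the test (adjusted p = 7.76e-05 and 8.95e-06). Elf5 passed the filter on low counts, at 1.73 CPM in 2 libraries, only through these 2 genotypes. No Elf5 start had a RING1B, SUZ12, H3K4me3 or PCGF6 peak in wild-type or in a Pcgf knockout. H3K27me3 peaks were called there in Pcgf1-/-, Pcgf2/4-/- and Pcgf3/5-/-, the 3 longest lists for that mark.

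Tfap2a and Tfap2c encode related AP-2 factors, yet they went opposite ways in 5 of 6 knockouts. Tfap2a was at 40.8 and 43.7 CPM in wild-type, 82.9 and 62.2 in Pcgf2/4-/-, 26.1 and 27.9 in Pcgf1-/-, 26.7 and 26.6 in Pcgf1/2/4-/-, 18.2 and 18.8 in Pcgf3/5-/-, 17.9 and 16.4 in Pcgf6-/- and 2.21 and 1.01 in Pcgf3/5/6-/-. Tfap2c was at 19.1 and 17.0 CPM in wild-type, 4.61 and 4.86 in Pcgf2/4-/-, 34.8 and 28.1 in Pcgf1-/-, 16.6 and 23.5 in Pcgf1/2/4-/-, 30.7 and 25.9 in Pcgf3/5-/-, 33.6 and 32.2 in Pcgf6-/- and 167 and 157 in Pcgf3/5/6-/-. Where Tfap2a was lowest Tfap2c was highest, and the reverse held in Pcgf2/4-/-. In Pcgf3/5/6-/- Tfap2a fell by 4.68 ± 0.28 on the log2 scale (25.6-fold; adjusted p = 1.47e-08) and Tfap2c rose by 3.16 ± 0.14 (adjusted p = 1.09e-09). In Pcgf2/4-/- Tfap2a rose by 0.75 ± 0.14 (adjusted p = 0.00225) and Tfap2c fell by 1.91 ± 0.21 (4.36e-05). Tfap2a fell in Pcgf6-/- (-1.30 ± 0.15; 9.30e-06), Pcgf3/5-/- (-1.19 ± 0.16; 1.12e-04), Pcgf1-/- (-0.65 ± 0.15; 0.00429) and Pcgf1/2/4-/- (-0.66 ± 0.18; 0.00985). Tfap2c rose in Pcgf6-/- (0.86 ± 0.15; 2.22e-04), Pcgf1-/- (0.82 ± 0.15; 8.72e-04) and Pcgf3/5-/- (0.66 ± 0.15; 0.00669), while its 0.16 in Pcgf1/2/4-/- did not pass. Tfap2a overlaps a gene on the other strand (Gm16989), and the counting is not stated to use strand, so its reads are uncertain to that extent.

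Gata2 and Gata3, zinc finger factors of trophoblast and of other lineages, were raised most in the libraries labelled Pcgf3/5/6-/-. Gata3 was at 12.7 and 13.8 CPM in wild-type and at 96.4 and 95.3 in Pcgf3/5/6-/-, 45.9 and 53.7 in Pcgf1/2/4-/-, 45.2 and 37.8 in Pcgf6-/-, 15.1 and 21.2 in Pcgf2/4-/-, 15.2 and 13.4 in Pcgf3/5-/- and 3.83 and 2.51 in Pcgf1-/-. Gata2 was at 7.28 and 4.92 CPM in wild-type and at 40.4 and 45.6 in Pcgf3/5/6-/-, 5.23 and 7.20 in Pcgf6-/-, 3.07 and 1.92 in Pcgf3/5-/-, 2.67 and 2.71 in Pcgf1/2/4-/-, 1.97 and 0.914 in Pcgf1-/- and 0 and 0.383 in Pcgf2/4-/-. Gata3 was thus above both wild-type libraries in 4 genotypes, whereas Gata2 was above it in Pcgf3/5/6-/- alone. Gata3 rose by 2.85 ± 0.17 on the log2 scale in Pcgf3/5/6-/- (adjusted p = 1.27e-08), 1.91 ± 0.18 in Pcgf1/2/4-/- (5.92e-06) and 1.65 ± 0.17 in Pcgf6-/- (1.83e-06), and fell by 1.97 ± 0.23 in Pcgf1-/- (3.08e-05). Its 0.53 in Pcgf2/4-/- (adjusted p = 0.0569) and 0.12 in Pcgf3/5-/- did not pass. Gata2 rose by 2.81 ± 0.26 in Pcgf3/5/6-/- (adjusted p = 8.34e-07) and fell by 1.91 ± 0.38 in Pcgf1-/- (0.00178) and by 1.23 ± 0.35 in Pcgf3/5-/- (0.0227). In Pcgf2/4-/- 3 counts stood against 86, a level of 4.82% of wild-type (exact 95% interval 0.975 to 14.6), which passed (adjusted p = 2.40e-04). In Pcgf6-/- the Gata2 difference was 0.01 ± 0.29 (adjusted p = 0.983) and in Pcgf1/2/4-/- -1.17 (0.0712). Gata3 shares its locus with 3 annotated genes, 4930412O13Rik and Gm13256 on the other strand and 9230102O04Rik on the same one, and its reads are uncertain for that reason.

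Hand1, the basic helix-loop-helix factor of giant cells and also of early mesoderm, was barely counted outside the triple knockouts. It had 8 and 2 counts in wild-type (1.14 and 0.281 CPM), 1 and 3 in Pcgf1-/-, 1 and 9 in Pcgf2/4-/-, 0 and 0 in Pcgf3/5-/- and 11 and 8 in Pcgf6-/- (1.37 and 1.23 CPM). In Pcgf1/2/4-/- it stood at 6.41 and 3.61 CPM and in Pcgf3/5/6-/- at 32.5 and 38.9 CPM. Only the 2 triple knockouts lay above both wild-type libraries by more than the gap between those libraries. The rise was 5.61 ± 0.40 on the log2 scale in Pcgf3/5/6-/- (adjusted p = 1.42e-07) and 2.75 ± 0.65 in Pcgf1/2/4-/- (0.00565). Its 0.86 ± 0.65 in Pcgf6-/- (adjusted p = 0.318) did not pass. In Pcgf3/5-/- 0 counts stood against 10, at least 3.00-fold lower than wild-type with a floor of 3 counts over the group (adjusted p = 0.0456), a call that rests on a handful of reads.

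The 3 keratin genes rose in Pcgf6-/- and in both triple knockouts. Krt7 was at 0.856 and 0.563 CPM in wild-type, 215 and 214 in Pcgf3/5/6-/-, 25.1 and 20.2 in Pcgf6-/-, 4.81 and 9.03 in Pcgf1/2/4-/-, 2.67 and 1.73 in Pcgf3/5-/-, 0.109 and 0 in Pcgf1-/- and 0 and 0.128 in Pcgf2/4-/-. Krt8 was at 95.6 and 103 CPM in wild-type, 560 and 594 in Pcgf3/5/6-/-, 216 and 235 in Pcgf6-/- and 191 and 219 in Pcgf1/2/4-/-, and between 99.9 and 115 in the other 3 knockouts. Krt18, which pairs with keratin 8 in filaments, was at 30.5 and 32.2 CPM in wild-type, 419 and 420 in Pcgf3/5/6-/-, 156 and 159 in Pcgf6-/-, 116 and 129 in Pcgf1/2/4-/-, 81.7 and 82.1 in Pcgf1-/-, 46.8 and 44.3 in Pcgf3/5-/- and 21.8 and 38.0 in Pcgf2/4-/-. All 3 kept the order Pcgf3/5/6-/-, Pcgf6-/-, Pcgf1/2/4-/-, wild-type, with 1 overlap between neighbours, at Krt8 between Pcgf6-/- and Pcgf1/2/4-/-. In Pcgf3/5/6-/- the rise was 293-fold for Krt7 (log2 8.20 ± 0.25; adjusted p = 6.72e-11), 3.74 ± 0.18 for Krt18 (1.79e-09) and 2.54 ± 0.14 for Krt8 (6.57e-09). In Pcgf6-/- it was 31.2-fold for Krt7 (4.96 ± 0.30; 1.15e-08), 2.33 ± 0.17 for Krt18 (8.54e-08) and 1.18 ± 0.13 for Krt8 (5.28e-06). In Pcgf1/2/4-/- it was 3.28 ± 0.46 for Krt7 (1.23e-04), 1.97 ± 0.18 for Krt18 (3.61e-06) and 1.05 ± 0.13 for Krt8 (6.23e-05). Krt18 rose without Krt8 in Pcgf1-/- (1.38 ± 0.17; adjusted p = 4.11e-05, against 0.01 for Krt8) and in Pcgf3/5-/- (0.54 ± 0.17; 0.0382, or 0.144 with the wild-type counts summed). Krt7 rose in Pcgf3/5-/- (1.65 ± 0.46; 0.021) and passed as lowered in Pcgf1-/-, where 1 count stood against 10 (10.4% of wild-type, exact 95% interval 0.241 to 73.4; adjusted p = 0.03). Krt8 and Krt18 have many processed pseudogenes, so counts at these genes are uncertain to the extent that reads were shared with copies.

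**Figure D2:**
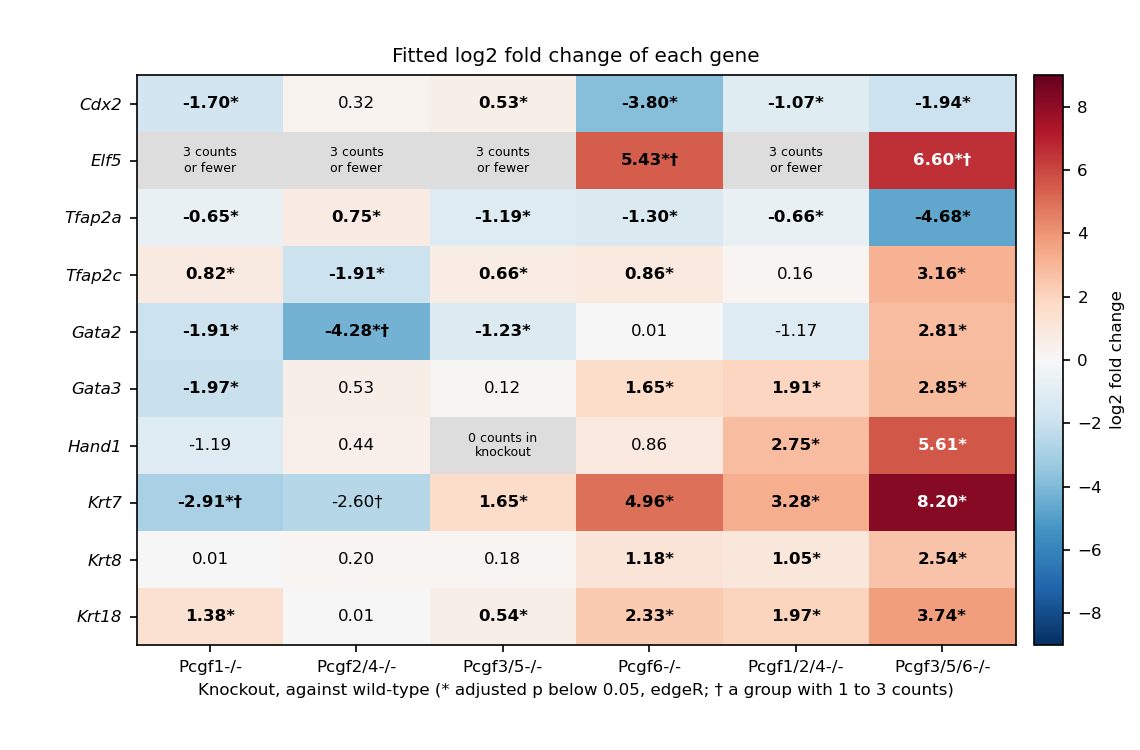
Fitted log2 fold change of each gene (rows) in each knockout against wild-type (columns), coloured from blue (lower) to red (higher), with an asterisk where the adjusted p was below 0.05 and a dagger where a group had 1 to 3 counts. The Pcgf3/5/6-/- column has 8 genes raised and 2 lowered, from -4.68 at Tfap2a to 8.20 at Krt7, and grey cells are those with too few counts for a value.

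Read across the 10 genes, Pcgf6-/- and the libraries labelled Pcgf3/5/6-/- gave mostly rises, Pcgf1-/- mostly falls. In Pcgf3/5/6-/- 8 were raised and 2 lowered, where 28% of all tested genes were raised and 25.3% lowered, and the median log2 fold change was 3.01 over the 10, or 2.85 over the 9 with more than 3 counts in both groups (0.048 over all tested genes). In Pcgf6-/- 6 were raised and 2 lowered (background 27.8% and 18.6%, median 1.02, or 0.86 over 9 genes, against 0.026). With offsets that follow expression level, the raised share of all calls in Pcgf6-/- went from 59.9% to 48.2%. In Pcgf1/2/4-/- 5 were raised and 2 lowered (14.4% and 22.6%, median 0.6, or 1.05 over 9, against -0.11). In Pcgf1-/- 2 were raised, Tfap2c and Krt18, and 5 lowered, Cdx2, Tfap2a, Gata2, Gata3 and Krt7 (13.9% and 18.4%, median -1.44, or -0.92 over 8, against -0.05). In Pcgf3/5-/- 4 were raised, Cdx2, Tfap2c, Krt7 and Krt18, and 3 lowered, Tfap2a, Gata2 and Hand1 (11.1% and 10.4%, median 0.35, also over 8, against 0). In Pcgf2/4-/- 1 was raised, Tfap2a, and 2 lowered, Tfap2c and Gata2 (8.1% and 13.5%, median 0.1, or 0.32 over 7, against 0). The Pcgf3/5-/- count of 7 depended on single libraries, and was 2 without wild-type replicate 1 or Pcgf3/5-/- replicate 1 and 4 without wild-type replicate 2 or Pcgf3/5-/- replicate 2. The Pcgf2/4-/- count was 5 in place of 3 without Pcgf2/4-/- replicate 1. All 10 genes passed the filter on low counts, Hand1 only through the triple knockouts and Krt7 only through these and Pcgf6-/-. Elf5 passed it only through Pcgf6-/- and Pcgf3/5/6-/-. The raised genes in Pcgf6-/- include Elf5 and Krt7, in Pcgf3/5/6-/- also Hand1, and in Pcgf1/2/4-/- Hand1 and Krt7. These were tested only because they are high in such lines, so their calls are no separate support. The same limit applies to comparisons between knockouts below. The 6 comparisons with wild-type share the wild-type libraries.

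The authors' deposited table of each comparison called 10 of the 10 genes in Pcgf3/5/6-/-, 8 in Pcgf6-/-, 7 in Pcgf1/2/4-/-, 7 in Pcgf3/5-/-, 6 in Pcgf1-/- and 4 in Pcgf2/4-/-. The share of all genes called by the authors was not counted. In the fit given here it was 28% raised and 25.3% lowered in Pcgf3/5/6-/-, and 27.8% and 18.6% in Pcgf6-/-. The shares for the other knockouts are given above. The header of the authors' Pcgf6-/- comparison names another clone than the count table. Yet its log2 fold changes lay close to those fitted here, -3.78 and -3.80 at Cdx2 and 5.04 and 4.96 at Krt7. Furthest apart was Elf5, at 5.86 and 5.43, and which clone was sequenced was not tested. Every one of the authors' calls had the sign of the fitted value given here, which is no independent check, as both come from this series. The authors' deposited table differed for Krt7 in Pcgf1-/- (log2 fold change -3.15, adjusted p = 0.0833) and for Gata3 in Pcgf2/4-/- (0.56, adjusted p = 0.0431).

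The triple knockouts were then set against the lines that lack a subset of the same genes. Between the libraries labelled Pcgf3/5/6-/- and Pcgf6-/- all 10 genes passed, where 46% of tested genes did in either direction. Krt7 was higher in Pcgf3/5/6-/- by 3.23 on the log2 scale, Hand1 by 4.75, Gata2 by 2.80, Tfap2c by 2.30, Cdx2 by 1.87, Krt18 by 1.41, Krt8 by 1.36, Gata3 by 1.20 and Elf5 by 1.17 (adjusted p = 0.0123), and Tfap2a lower by a log2 difference of -3.38. So Cdx2 stood 1.87 higher than in Pcgf6-/- though still below wild-type. Against Pcgf3/5-/- all 10 passed as well (background 51.8%). Krt7 was higher by 6.55, Gata2 by 4.05, Krt18 by 3.20, Gata3 by 2.73, Tfap2c by 2.5 and Krt8 by 2.36, with differences of -2.46 for Cdx2 and -3.48 for Tfap2a. Hand1, with 0 counts in Pcgf3/5-/-, was at least 151-fold higher, and Elf5 38.7-fold (exact 95% interval 12.6 to 193).

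For the other triple line, 7 of 10 passed between Pcgf1/2/4-/- and Pcgf1-/- (background 41.6%). Hand1 was higher in Pcgf1/2/4-/- by 3.94, Gata3 by 3.88, Krt8 by 1.03, Cdx2 by 0.62 and Krt18 by 0.59 on the log2 scale, Tfap2c lower (-0.66), and Krt7 was 95.9-fold higher from 1 count in Pcgf1-/- (exact 95% interval 15.9 to 3920). Against Pcgf2/4-/- 9 passed (background 30%): Hand1 by 2.31, Tfap2c by 2.07, Krt18 by 1.96, Gata3 by 1.39 and Krt8 by 0.85 were higher, Cdx2 (-1.39) and Tfap2a (-1.41) lower. Krt7 was 72.5-fold higher than the 1 count of Pcgf2/4-/- (12 to 2960) and Gata2 9.16-fold higher than its 3 counts (2.42 to 51.1). Elf5 had no count in either line.

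Whether losing a further Pcgf gene moved these genes equally in both backgrounds was tested as a difference of differences, a contrast added after seeing the data. The effect of Pcgf6 loss by label differed with Pcgf3/5 lost at 9 of 10 genes (34.9% of tested genes passed). The effect of Pcgf1 loss differed with Pcgf2/4 lost at 7 of 10 (30.9%). Krt7, for example, was higher by 1.58 than the sum of the log2 changes in Pcgf6-/- and Pcgf3/5-/- (adjusted p = 0.0467), Tfap2c by 1.64 and Krt8 by 1.18, while Tfap2a differed from the sum by -2.18.

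**Figure D3:**
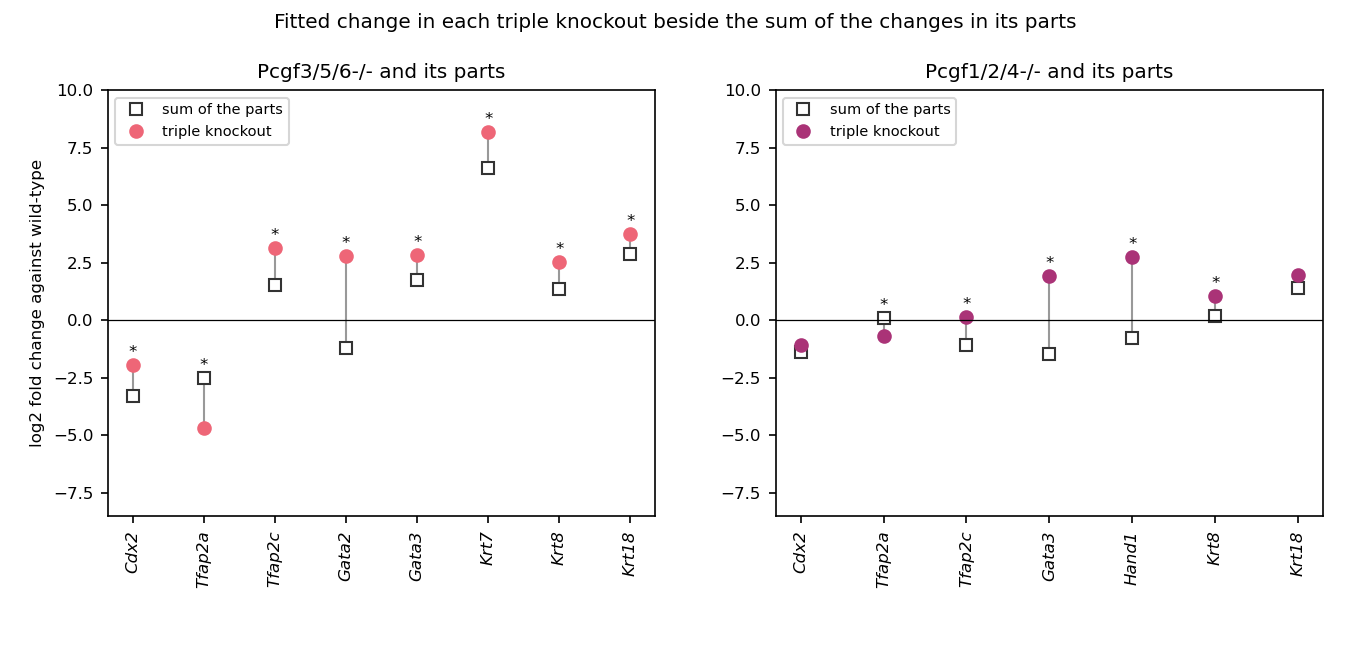
Log2 fold change against wild-type in each triple knockout (circles) beside the sum of the changes in its parts (open squares), for genes with more than 3 counts in all groups, with an asterisk where the difference passed. On the left the Pcgf3/5/6-/- value lies above the sum for 7 of the 8 genes shown and below it for Tfap2a (-2.18).

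Set against each other directly, Pcgf6-/- differed from the other single and double knockouts at most of these genes. Against Pcgf1-/- 9 of 10 passed (background 52.5%), all but Tfap2c. Against Pcgf2/4-/- 9 passed (51.8%), all but Hand1. Against Pcgf3/5-/- 8 passed (46%), all but the AP-2 genes. Each of these counts includes Elf5 and Krt7, which passed the filter on low counts only through Pcgf6-/- and triple knockouts. Their calls are therefore no separate support for a difference. With the level-dependent offsets the raised share of all calls went from 61.4% to 48.9% against Pcgf1-/-, 61.4% to 49.8% against Pcgf2/4-/- and 61.1% to 49.5% against Pcgf3/5-/-. Elf5 was at least 18.3-fold higher in Pcgf6-/- than in Pcgf1-/- and at least 13.8-fold higher than in Pcgf2/4-/-, both of which had 0 counts. Hand1 was at least 5.52-fold higher than in Pcgf3/5-/-.

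**Figure D4:**
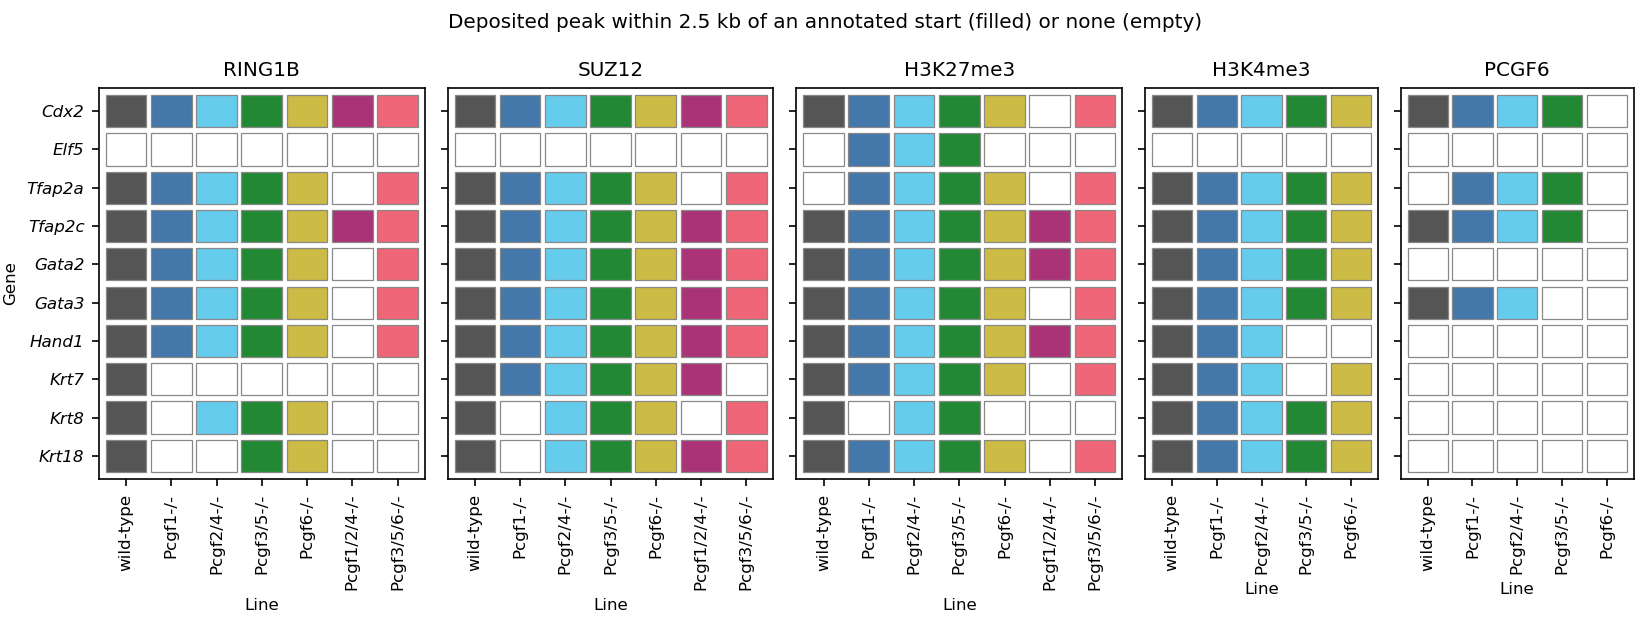
Peaks within 2.5 kb of an annotated start, filled where the authors' list for that line (columns) has 1 or more at the gene (rows). RING1B is present at 9 genes in wild-type cells, 6 in Pcgf3/5/6-/- and 2 in Pcgf1/2/4-/-, and PCGF6 at 0 in Pcgf6-/-.

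Called RING1B peaks were missing at the keratins in more lines than at the 6 transcription factor genes that had them. Cdx2 and Tfap2c had a RING1B peak in all 7 lines, and Tfap2a, Gata2, Gata3 and Hand1 in all but Pcgf1/2/4-/-. Krt7 had one in wild-type only, Krt8 lacked one in Pcgf1-/-, Pcgf1/2/4-/- and Pcgf3/5/6-/-, and Krt18 in those 3 and in Pcgf2/4-/-. The count was 6 of 10 in Pcgf1-/- (15.8% of genes), 7 in Pcgf2/4-/- (17.6%), 8 in Pcgf3/5-/- (15.9%), 8 in Pcgf6-/- (13.1%), 6 in Pcgf3/5/6-/- (8.26%) and 2 in Pcgf1/2/4-/- (7.06%). The second Pcgf1/2/4-/- list had the same 2 genes (6.31%), and a window of 5 kb added Gata2 in both. Peaks that stayed there were short, 764 bp at Cdx2 (499 in the second list) and 782 at Tfap2c (728). In Pcgf3/5/6-/- the Cdx2 peak ranked above 99.3% of its list and that of Tfap2a above 95.9%, while the Tfap2c peak, 370 bp, ranked above 8.74%. In Pcgf6-/- Cdx2 ranked above 99.4%, and Gata3 and Tfap2c above 99.1% each. The Cdx2 peak ranked above 84.9% in Pcgf1-/-, 92.5% in Pcgf3/5-/-, 97.4% in Pcgf2/4-/- and 71.3% in Pcgf1/2/4-/- (70.8% in the second list). Cdx2 RNA was lowered in Pcgf6-/-, Pcgf3/5/6-/-, Pcgf1-/- and Pcgf1/2/4-/-. Ranks are within lists of different length, and a link between rank and RNA was not tested. Peak calls depend on each list's depth and enrichment, and whether these decided a single loss was not tested.

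SUZ12 was called at 7 to 9 of the genes in each line, H3K27me3 at 3 to 10. SUZ12 was called at 9 in Pcgf2/4-/- (21.7% of genes), Pcgf3/5-/- (17.5%) and Pcgf6-/- (15.0%). It was called at 8 in Pcgf3/5/6-/- (13.5%), without Krt7 and Elf5. Pcgf1-/- (15.6%) had 7, without Krt8, Krt18 and Elf5, and Pcgf1/2/4-/- (13.6%) had 7, without Tfap2a, Krt8 and Elf5. H3K27me3 was called at 3 in Pcgf1/2/4-/- (5.76%), namely Tfap2c, Gata2 and Hand1. That count was 1, Gata2, in a window of 1 kb and 2, Tfap2c and Gata2, with only the 5′-most start. H3K27me3 was called at 8 in Pcgf6-/- (14%) and in Pcgf3/5/6-/- (20.1%), where Krt8 and Elf5 were without, at 9 in Pcgf1-/- (20.0%) and at 10 in Pcgf3/5-/- (21.5%) and Pcgf2/4-/- (36.7%). These counts include Tfap2a in all 5 of these lines and Elf5 in Pcgf1-/-, Pcgf2/4-/- and Pcgf3/5-/-, neither of which was called in wild-type, while Krt8 was missing in Pcgf1-/-, Pcgf6-/- and Pcgf3/5/6-/-. The lists were longer than the 8063 peaks of wild-type cells, with 112110 in Pcgf2/4-/-, 21239 in Pcgf3/5-/-, 20147 in Pcgf1-/-, 14126 in Pcgf3/5/6-/- and 13041 in Pcgf6-/-. Krt7, the gene with the largest rise in Pcgf3/5/6-/-, had H3K27me3 there but no RING1B or SUZ12 peak. H3K4me3 was called at 9 in Pcgf1-/- (67.5%) and Pcgf2/4-/- (68.4%), at 8 in Pcgf6-/- (70.2%), without Hand1 and Elf5, and at 7 in Pcgf3/5-/- (67.2%), without Hand1, Krt7 and Elf5. The 2 genes differed in RNA there: Hand1 had 0 counts in Pcgf3/5-/- and Krt7 was raised. In Pcgf6-/- Hand1 had 11 and 8 counts.

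PCGF6 was called at 0 to 5 of these starts, and after knockdown of its partners at fewer than with the control hairpin. No gene of the 10 had a PCGF6 peak in Pcgf6-/- (1.62% of genes did). Cdx2, Tfap2c and Tfap2a had one in Pcgf1-/-, Pcgf2/4-/- and Pcgf3/5-/-, though in Pcgf3/5-/- not Tfap2a within 1 kb. Gata3 had one in Pcgf1-/- and Pcgf2/4-/-, where 18.2% and 33.4% of genes did. With a control hairpin 5 of 10 had one (20.9% of genes). The knockdown of Mga left 0 (0.738%), the sample labelled shMGAdHLH 0 (2.29%), the knockdown of E2f6 1, Cdx2 (1.93%; also Gata2 with a window of 5 kb), and the sample labelled shE2F6-MGAdHLH 0 (0.851%). Those 4 lists held 355 to 733 peaks, the control hairpin list 7451. In the Ring1a-/- line with the undeleted Ring1b allele 3 had one (6.30%) and after Ring1b loss 0 (4.88%; Gata2 with a window of 5 kb). Of the other PCGF proteins, PCGF1 was called in wild-type at Cdx2, Tfap2c, Gata2 and Gata3 (2.59%; only the first 2 with the 5′-most start) and PCGF2 at 7 genes (13.3%), and the PCGF2 peaks were at 0 of the 10 in Pcgf2/4-/- (3.60%).

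**Figure D5:**
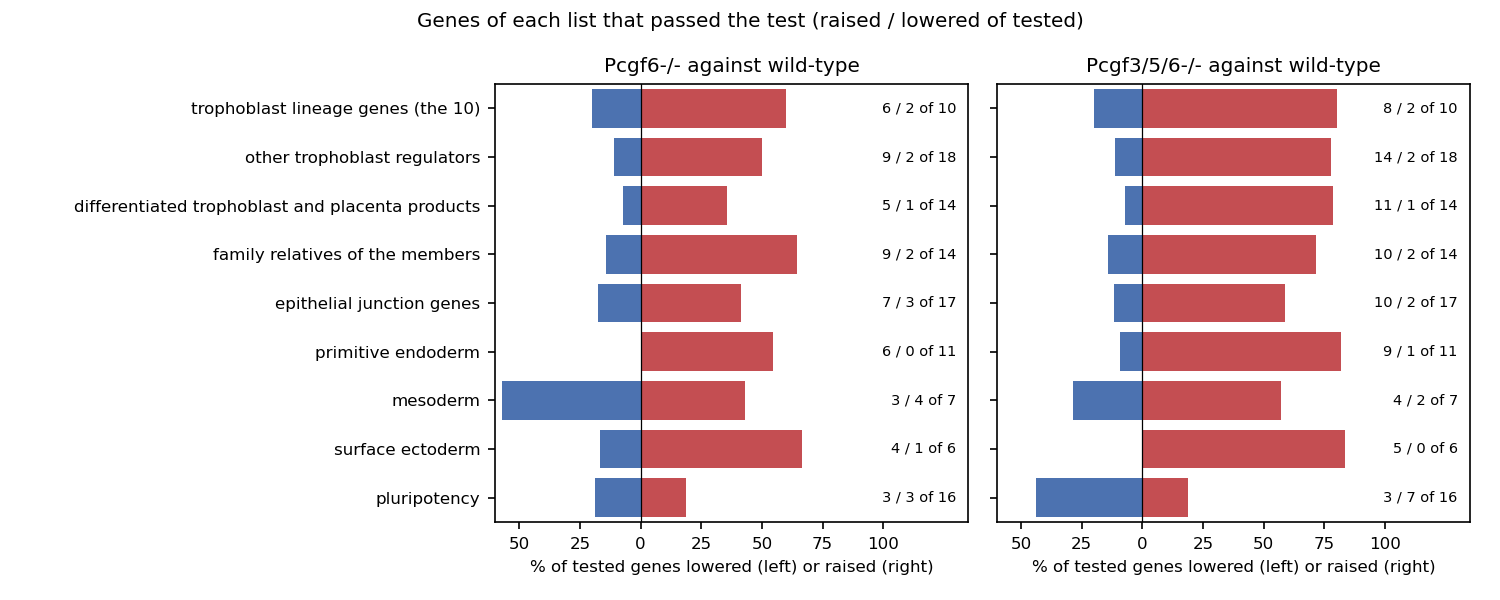
Share of the tested genes of each list that were lowered (left, blue) or raised (right, red) in Pcgf6-/- and in Pcgf3/5/6-/- against wild-type, in percent, with the counts at the right. The 2 other trophoblast lists go from 9 and 5 raised genes in Pcgf6-/- to 14 and 11 in Pcgf3/5/6-/-, and primitive endoderm from 6 to 9 of 11.

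Lists of other genes are given by their counts beside the shares of all tested genes, which were 28% raised and 25.3% lowered in Pcgf3/5/6-/- (median 0.048) and 27.8% and 18.6% in Pcgf6-/- (median 0.026). Listed genes below 1.73 CPM in wild-type passed the filter on low counts only through knockout lines. Pparg, Esx1, Dlx3, Plac1, Nrk, Dab2 and Krt14 are such genes, and their calls as raised, here and below, are no separate support. How many genes of each list this concerns was not counted. Of 18 further trophoblast regulators, 14 rose and 2 fell in Pcgf3/5/6-/- (median log2 fold change 2.26) and 9 rose and 2 fell in Pcgf6-/- (1.01). In Pcgf1-/- 3 rose and 9 fell (13.9% and 18.4% of all tested genes), and in Pcgf2/4-/- 1 and 6 (8.1% and 13.5%). In Pcgf3/5-/- 3 rose and 2 fell (11.1% and 10.4%), and in Pcgf1/2/4-/- 4 and 4 (14.4% and 22.6%). The summed level of the 18 regulators was 359 and 360 CPM in wild-type, 560 and 562 in Pcgf6-/- and 1330 in each Pcgf3/5/6-/- library. Esx1, a placental homeobox gene, went from 0.285 and 0.844 CPM to 14.3 and 12.1 in Pcgf6-/- (4.49 ± 0.36; adjusted p = 2.39e-07) and 46.1 and 43.6 in Pcgf3/5/6-/- (6.25 ± 0.33; 5.00e-09). Gcm1, which directs syncytiotrophoblast, went from 1.57 and 0.422 to 20.4 and 20.1 CPM in Pcgf6-/- (4.32 ± 0.32; 9.37e-08). In Pcgf3/5/6-/- it was lower than that, at 14.9 and 13.9 CPM. Dlx3 reached 48.7 and 38.5 CPM in Pcgf3/5/6-/- (6.21 ± 0.39; 1.15e-07), and Pparg, with 0 counts in wild-type, 29.4 and 28.7 CPM. Eomes, the T-box factor of trophoblast stem cells, singled out after its values were seen, was at 11.4 and 12.2 CPM in wild-type, 1.87 and 2.91 in Pcgf6-/- and 2.53 and 4.06 in Pcgf3/5/6-/-, below wild-type as Cdx2 was.

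Of 20 products of differentiated trophoblast and placenta, 14 were tested, and the rest did not pass the filter on low counts. In Pcgf3/5/6-/- 11 rose and 1 fell (median 3.33), in Pcgf6-/- 5 and 1 (0.24), a raised share near that of all tested genes. Plac1, a placental surface protein, went from 0.571 and 0.985 CPM to 144 and 152 in Pcgf3/5/6-/- (7.53 ± 0.26; adjusted p = 9.68e-10) and 14.4 and 13.3 in Pcgf6-/- (4.12 ± 0.32; 5.16e-07). Nrk, a kinase of the spongiotrophoblast, went from 0.856 and 0.844 to 147 and 146 CPM in Pcgf3/5/6-/- (7.39 ± 0.32; 9.02e-10). Other products stayed near 0, of which Tpbpa and Prl3d1 were singled out after their values were seen. Tpbpa had 4 and 3 counts in Pcgf3/5/6-/- and 0 in every other library, and Prl3d1 had 0 in all 14. Of the families of the 10 genes, 14 relatives were tested, of which 10 rose and 2 fell in Pcgf3/5/6-/- and 9 and 2 in Pcgf6-/-. Krt19 rose from 4.57 and 3.52 to 275 and 290 CPM (6.12 ± 0.20; 7.38e-11) and Krt14 to 45.2 and 39.5 in Pcgf3/5/6-/-. Of 17 epithelial junction genes 10 rose and 2 fell in Pcgf3/5/6-/-, with Cldn6 (10.1 and 8.72 to 106 and 104 CPM) and Cldn7 among the raised. In Pcgf1/2/4-/- 10 rose and 2 fell as well (14.4% and 22.6% of all tested genes), and in Pcgf1-/- 9 and 3 (13.9% and 18.4%). In Pcgf6-/- it was 7 and 3, in Pcgf2/4-/- 5 and 1 (8.1% and 13.5%) and in Pcgf3/5-/- 2 and 5 (11.1% and 10.4%).

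Genes of other cell types were counted in the same way, against the same shares of all tested genes. Of 15 primitive endoderm genes 11 were tested, and 9 rose and 1 fell in Pcgf3/5/6-/-, while 6 rose and 0 fell in Pcgf6-/-. Summed levels of the 15 were 314 to 319 CPM in wild-type, 446 to 459 in Pcgf6-/- and 624 to 660 in Pcgf3/5/6-/-. Dab2, an endocytic adaptor of that tissue, was at 0 in wild-type, 42.5 and 38.5 CPM in Pcgf6-/- and 40.8 and 50.7 in Pcgf3/5/6-/-. Gata4, Gata6 and Sox17 of the same list, singled out after their values were seen, were at 0 in wild-type and stayed low. In Pcgf6-/- Gata4 was at 0.124 and 0.153 CPM, Gata6 at 2.12 and 1.07 and Sox17 at 0.747 and 0.919. In Pcgf3/5/6-/- they were at 0.632 and 2.03, 1.26 and 1.69, and 0.632 and 1.01 CPM. Surface ectoderm genes rose at 5 of 6 in Pcgf3/5/6-/- with 0 lowered, and at 4 of 6 in Pcgf6-/- with 1 lowered. Krt5 and Krt14 are in this list as well as among the family relatives. Gata4 and Gata6 of the primitive endoderm list and Hand2 of the mesoderm list are also among those relatives. Mesoderm genes split, with 4 raised and 2 lowered of 7 in Pcgf3/5/6-/- and 3 and 4 in Pcgf6-/-. T, the mesoderm factor brachyury, went from 36.2 and 30.0 CPM to 0.622 and 1.23 in Pcgf6-/- (-5.17 ± 0.33; adjusted p = 1.97e-08). Pluripotency genes went 3 up and 7 down of 16 in Pcgf3/5/6-/- and 3 and 3 in Pcgf6-/-, with medians of -0.21 and 0. Neural genes, of which 3 of 10 were tested, had 2 raised in Pcgf3/5/6-/- and 1 raised and 1 lowered in Pcgf6-/-. Fibroblast markers summed to 11.4 to 15.4 CPM in wild-type, 27.3 to 31.0 in Pcgf6-/- and 37.2 to 41.1 in Pcgf3/5/6-/-, with Thy1 at 16.1 and 15.5 in the last. The fibroblast gene Dcn was at 0 except for 1 count in each Pcgf3/5/6-/- library, and Lum was at 0 in those 2. The part of other cell types in the changes of the 10 genes was not tested.

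The genes whose levels ran most like those of the 10 were found by the root mean square difference of centred log2 CPM over the 14 libraries, as a description with no test. Krt7 was closest to Plac1 (0.56) and H19 (0.706), against a range of 9.18 of its own. Krt8 was closest to Cxcl16 (0.291) and Btg2 (0.357), and Krt18 to Dkkl1 (0.371) and Sfrp2 (0.413). Cdx2 ran closest to BC089491 (0.473) and Gbx2 (0.574), Tfap2a to 2700046A07Rik (0.521) and 1700097N02Rik (0.567), and Tfap2c to Pea15a (0.392) and Prkcdbp (0.431). Gata2 was closest to Dysf (0.558) and Psors1c2 (0.559), Gata3 to Lcp1 (0.456) and Dpysl2 (0.518), Hand1 to Vgll3 (0.859) and Zfp36l3 (0.895), and Elf5 to Dgat2 (0.411) and Rpph1 (0.438). None of the 10 was among the 2 genes closest to another of the 10.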

How the data were processed

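The count table holds raw reads per gene symbol, as deposited by the authors, in 14 libraries, and all columns were mapped to samples by name (0 unmapped). The authors' deposited comparison tables give log2 fold changes and p-values. Each peak list gives a fold enrichment, a ratio over background, and −log10 p and q-values per peak, as deposited by the authors from 1 sample each. Per the submitters' processing notes, TopHat2 2.1.1, Bowtie 1.2.2, HTSeq 0.7.2 and MACS2 2.1.1 were used with mm9, with no role or order given. Count settings, such as strand, are not named in the sources at hand.

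Counts were tested here in edgeR 4.0.16 (quasi-likelihood, TMM factors, filterByExpr, Benjamini-Hochberg over 15464 genes, threshold 0.05) in 1 fit of 14 libraries with a coefficient per genotype. The procedure was tested on simulated data. CPM were divided by exon length for levels between genes, and a prior count of 2 was used for log2 CPM. The count table names another Pcgf6-/- clone in its headers than the authors' comparison table does. Starts and genes were matched on NCBIM37 for 21966 genes, 965 of them by RefSeq synonym, and a peak counted when it overlapped 2500 bp either side of any annotated start. Alternatives were RLE factors, loess offsets, no filter, DESeq2 1.42.0, the 2 groups alone, a replicate block and leaving out each replicate, and for peaks windows of 1 and 5 kb, a q filter and the 5′-most start. Of other lists, up to 3 called genes with the largest fold change per comparison could be named, and 2 look-alike genes per gene. The 10 genes and the lists were chosen with earlier results of these data known. Intervals and floors cover counting error only.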

Additional observations from a re-analysis of the deposited data

Results flagged for a closer look

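Losing Pcgf6, by label, in cells that also lack Pcgf3/5 had another effect than losing it alone at 9 of the 10 genes, where 34.9% of all tested genes passed. This was tested as a difference of 2 log2 differences in edgeR, a contrast added after seeing the data. Hand1 and Krt7 passed the filter on low counts only through lines where they are high, so their calls, here and below, are no separate support. The effect with Pcgf3/5 lost minus the effect alone was 1.34 for Cdx2, -2.18 for Tfap2a, 1.64 for Tfap2c, 4.03 for Gata2, 1.08 for Gata3, 1.18 for Krt8 and 0.87 for Krt18. For Krt7 it was 1.58 (adjusted p = 0.0467), and without wild-type replicate 1 it was 1.26 (adjusted p = 0.316). The fitted 9.73 for Hand1 rests on 0 counts in Pcgf3/5-/- and is no measure of size. In the libraries labelled Pcgf3/5/6-/- Pcgf6 stood at 42 and 37.2 CPM.

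Losing Pcgf1 in cells that also lack Pcgf2/4 had another effect than losing it alone at 7 of the 10 genes, where 30.9% of all tested genes passed. The difference was -0.76 for Tfap2a, 1.25 for Tfap2c, 5.01 for Gata2, 3.36 for Gata3, 3.50 for Hand1, 8.79 for Krt7 and 0.84 for Krt8. The values for Gata2 and Krt7 rest on 3 and 1 counts in a group. With loess offsets Tfap2a (-0.53) and Krt8 (0.55) did not pass.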

How the results depend on the processing

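Of 136 recomputed counts of called genes, 129 were within 1.5 times the count given, and 1526 of 1626 recomputed fold changes kept their direction and their side of the threshold. In Pcgf2/4-/- the count went from 3 to 5 with RLE factors and with loess offsets, and to 3 to 5 when 1 replicate was left out. In Pcgf3/5-/- it went from 7 to 2 to 4 when 1 replicate was left out (2 without wild-type replicate 1 or Pcgf3/5-/- replicate 1, 4 without either of the others). Leaving out 1 replicate gave 5 to 7 in Pcgf1-/-, 8 to 8 in Pcgf6-/-, 5 to 7 in Pcgf1/2/4-/- and 10 to 10 in Pcgf3/5/6-/-. With the wild-type counts summed to 1 sample, added after seeing the data, the counts were 7 in Pcgf1-/-, 3 in Pcgf2/4-/-, 6 in Pcgf3/5-/-, 8 in Pcgf6-/-, 7 in Pcgf1/2/4-/- and 10 in Pcgf3/5/6-/-. A fit with a replicate block gave 7, 3, 6, 8, 7 and 10. Replicate numbers did not pair the samples: the replicate differences of 21 genotype pairs correlated at -0.462 to 0.375, and 3 were over 0.1. Small differences that changed sign, none called in the fit given, were Tfap2a between Pcgf1/2/4-/- and Pcgf1-/- (0.01 with RLE factors and DESeq2, 0.29 with loess offsets), Gata2 in Pcgf6-/- against wild-type (-0.01 without the filter, -0.4 with loess, -0.24 without wild-type replicate 2, -0.22 without Pcgf6-/- replicate 2, up to 0.32 without 1 other), Tfap2c between Pcgf6-/- and Pcgf1-/- (-0.05 without the filter, -0.06 with the 2 groups alone, -0.21 to 0.23 leaving out 1 replicate), Hand1 between Pcgf6-/- and Pcgf2/4-/- (-0.38 with loess), and Krt18 in Pcgf2/4-/- (-0.02 with the replicate block, -0.04 without wild-type replicate 1, -0.53 without Pcgf2/4-/- replicate 2, adjusted p = 0.0466 in edgeR). The same held for Hand1 in Pcgf1-/- (-2.37 to 0.08 leaving out 1 replicate), Krt8 in Pcgf1-/- (-0.05 to 0.13), Hand1 in Pcgf2/4-/- (-0.73 to 1.7), Tfap2c in Pcgf1/2/4-/- (-0.12 to 0.39) and the Elf5 difference of differences (-2.29 to 0.52). The cause was not tested. Peak counts summed over genes and lines moved by less than 1.5 times with the window, start and q settings, from 13 to 18 for PCGF6 and 44 to 47 for RING1B, but small counts of single lists moved more, as H3K27me3 in Pcgf1/2/4-/- did (3 to 1). Depth limits Elf5, Hand1 and Krt7 most, with 0 to 10 counts over both libraries in several genotypes.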
